A study of Mus musculus with 20 samples.

Results

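Cytosolic ribosomal protein genes code for the proteins of the ribosome in the cell's cytosol. They were taken here as the protein-coding genes whose symbol is Rpl or Rps followed by a number, together with Rplp0, Rplp1, Rplp2 and Rpsa, leaving out pseudogenes and the kinases named Rps6k. The rule fits 86 genes of the annotation, and 83 of them had a transcript listed in every WT and KO Ang II library, out of 14569 genes that did. The 83 genes had 353 such transcripts, which were added up per gene, and all 83 had a mean of at least 1 FPKM, a read level per transcript length and library depth. Of these, 31 code for small subunit proteins, 46 for large subunit proteins, and 6 are paralogues or carry a related symbol (Rpl7l1, Rpl22l1, Rpl36al, Rps27l, the retrocopy Rps27rt and Rps19bp1, which codes for a protein that binds a ribosomal protein and is no part of the ribosome). Rpl3l was listed for WT animals only, and Rpl10l and Rpl39l were listed in neither table.

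The RNA came from mouse abdominal aorta. There were 4 groups of 5 libraries: wild type (WT) with saline, WT with a peptide hormone that constricts arteries, angiotensin II (Ang II), at 500 ng/kg/min, KO with Ang II at that rate, and KO with saline. The study is about DAPK1, a kinase activated by calcium and calmodulin, and the labels give no strain, age, duration of infusion or design of the knockout. The labels do not say that each library is a separate animal, so each library, named here by its title, was taken as an animal, and p-values measure the spread between these libraries. Values listed by library follow the order of their numbers: saline-treated WT are WTNS_369, WTNS_373, WTNS_523, WTNS_547 and WTNS_550, Ang II-treated WT are WTAng_II519, WTAng_II536, WTAngII568, WTAngII580 and WTAngII581, Ang II-treated KO are KOAng_II402, KOAngII537, KOAngII560, KOAngII612 and KOAngII628, and saline-treated KO are KONS_387, KONS_412, KONS_555, KONS_608 and KONS_627. For KO saline the labels conflict: 1 field says WT, but the titles say KO, which was used.

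A ribosome carries a single copy of nearly every one of its proteins, so cells make these proteins in matched amounts. The mRNAs are short, abundant and stable, and many begin with a run of pyrimidines directly at the cap, the 5′ terminal oligopyrimidine (TOP) tract, through which the kinase complex mTORC1 and the protein LARP1 set how strongly they are translated. Several promoters of these genes carry binding sites for ETS family factors such as GABP. Mammalian genomes also hold many processed pseudogenes of them, which are copies of the spliced mRNA without introns. Ang II is known to raise protein synthesis in vascular smooth muscle cells.

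The start sites are shown because the TOP tract is the feature these mRNAs are known for. RefSeq promoter windows on GRCm38.p6, 300 bases long, were found for 63 of the 83 genes and gave 74 windows. At the start position, 14 of the 74 windows (18.9%) had a C followed by at least 4 further C or T letters, against 823 of 32851 windows of all genes (2.51%) and 0 of 75 windows of mitochondrial ribosomal protein genes. The letters were read from the annotated start alone, so 18.9% need not be the share of genes with a TOP tract. The lines below show some of these 14 windows. They hold 20 bases before and 10 bases from the annotated start, with the pyrimidine run in capitals as far as it lies inside the line. The lines are Rps6 at chr4:86857358-86857387, Rpl35 at chr2:39005122-39005151, Rps27 at chr3:90213639-90213668 and Rps27rt at chr9:114982730-114982759, all on the minus strand, and Rpl35a at chr16:33056462-33056491, Rps21 at chr2:180257359-180257388 and Rplp2 at chr7:141447631-141447660, all on the plus strand.
Rps6: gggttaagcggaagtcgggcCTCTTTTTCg
Rpl35: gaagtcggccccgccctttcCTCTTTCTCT
Rps27: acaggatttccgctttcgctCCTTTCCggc
Rps27rt: ggttaagaacttatcccttgCTTTCCggcg
Rpl35a: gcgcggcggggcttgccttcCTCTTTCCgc
Rps21: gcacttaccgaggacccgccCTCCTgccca
Rplp2: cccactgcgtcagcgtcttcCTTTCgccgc

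Motifs were searched on both strands of the whole window. CCGGAA, the core of ETS sites, was found in 36 of the 74 windows (48.6%) against 14.9% of all windows, and in 57.3% of the windows of mitochondrial ribosomal protein genes. AAGATGGC, a YY1 core, was found in 10.8% against 2.75%, the E box CACGTG in 10.8% against 7.15%, and TATAAA in 9.46% against 13.6%. In the windows of mitochondrial ribosomal protein genes these shares were 16.0%, 9.33% and 6.67%. A match of letters is a description of the window, not evidence of binding.

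Copies in the genome bear on how these genes can be counted, so 3 pairs are shown where the member and its copy are nearly or fully the same. Over the 341 bases that the main transcripts of Rps27 (345 bases, ENSMUSG00000090733.6, chr3:90212522-90213651, minus strand) and the intronless Rps27rt (ENSMUSG00000050621.7, chr9:114982366-114982739, minus strand) share, 0 bases differed. The coding start shown for both spans 2 exons and an intron in Rps27 (chr3:90213279-90213615) and 1 exon in Rps27rt (chr9:114982679-114982707). Rpl34-ps1, a processed pseudogene on chromosome 6, differed from the Rpl34 transcript at 2 of 354 bases, T222C and C408G, and Rps27a-ps2 on chromosome 9 differed from Rps27a at 1 of 467, A661G. In each token the member's base comes first, positions are counted from 1 at the 5′ end of the member's transcript, and the differing base is in capitals. The Rpl34 stretch lies in coding exon 3 (chr3:130729070-130729098, minus strand) and that of its copy at chr6:71124727-71124755 on the plus strand. The Rps27a stretch lies in coding exon 6 (chr11:29545962-29545990, minus strand) and that of its copy at chr9:83410020-83410048 on the plus strand. Transcript sequences are GENCODE M21 on GRCm38.
Rps27: atgcctctcgcaaaggatctccttcatcc
Rps27rt: atgcctctcgcaaaggatctccttcatcc
Rpl34: aaagcacctaaatcTgcatgtggcgtgtg
Rpl34-ps1: aaagcacctaaatcCgcatgtggcgtgtg
Rps27a: tgtccttctgatgaAtgtggtgctggagt
Rps27a-ps2: tgtccttctgatgaGtgtggtgctggagt

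The depth of the 20 libraries, worked out from the steps of the low values, was 59 to 74.9 megareads. The members' FPKM added up to 3.27% to 5.55% of the annotated sum in each of the 15 libraries of the WT and KO Ang II tables. The median member had a median of 10022 reads per library. Dapk1, summed in the same way, ran in KO Ang II from 0.514 to 9.46 FPKM, in WT saline from 9.48 to 15.4 and in WT Ang II from 3.96 to 19.9, so the libraries labelled KO overlap the WT libraries in this measure. Markers of smooth muscle (6 of 6 listed) had a mean log2(FPKM + 1) of 7.73 to 9.08 in the 15 libraries. Markers of brown adipocytes (7 of 7 listed) were also present in all of them, with a mean of 4.31 to 6.4 in KO Ang II, 4.87 to 6.87 in WT saline and 3.46 to 6.53 in WT Ang II. Markers of intestine (6 of 10 listed; Krt20, Cdx1, Cdx2 and Vil1 were not) were at 0.25 to 0.45 in WT saline, at 1.83 and 1.78 in WT Ang II animals WTAngII580 and WTAngII581 and 0.18 to 0.37 in the other WT Ang II animals, and at 1.94 to 2.90 in KO Ang II. In bulk tissue, fewer cells of a type and less RNA per cell cannot be told apart.

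The family was abundant and most of its genes lay close together. Mean levels over the 15 libraries ran from 643 FPKM to 2.02 FPKM. Rplp1, an acidic protein of the stalk that recruits elongation factors, was the highest at 642, 833, 573, 568.1 and 598 FPKM in WT saline, at 573, 557, 673, 764 and 549 in KO Ang II, and at 678, 712, 706, 561 and 659.6 in WT Ang II. The groups overlapped throughout. Next came Rps3a1, a small subunit protein near the mRNA exit, at a mean of 519.7 FPKM, Rps6, the substrate of S6 kinase, at 424, Rplp0, which anchors the stalk, at 422, and Rps4x, an X-linked small subunit protein, at 399. The 5 lowest were Rpl29 (2.02 FPKM), Rpl17 (3.60), Rps19bp1 (8.15), Rpl21 (14.4) and Rpl7a (16.2). Rpl17, which lines the exit tunnel, Rpl21 and Rpl7a have copies that were listed far higher than the genes themselves, as described further on.

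**Figure D1:**
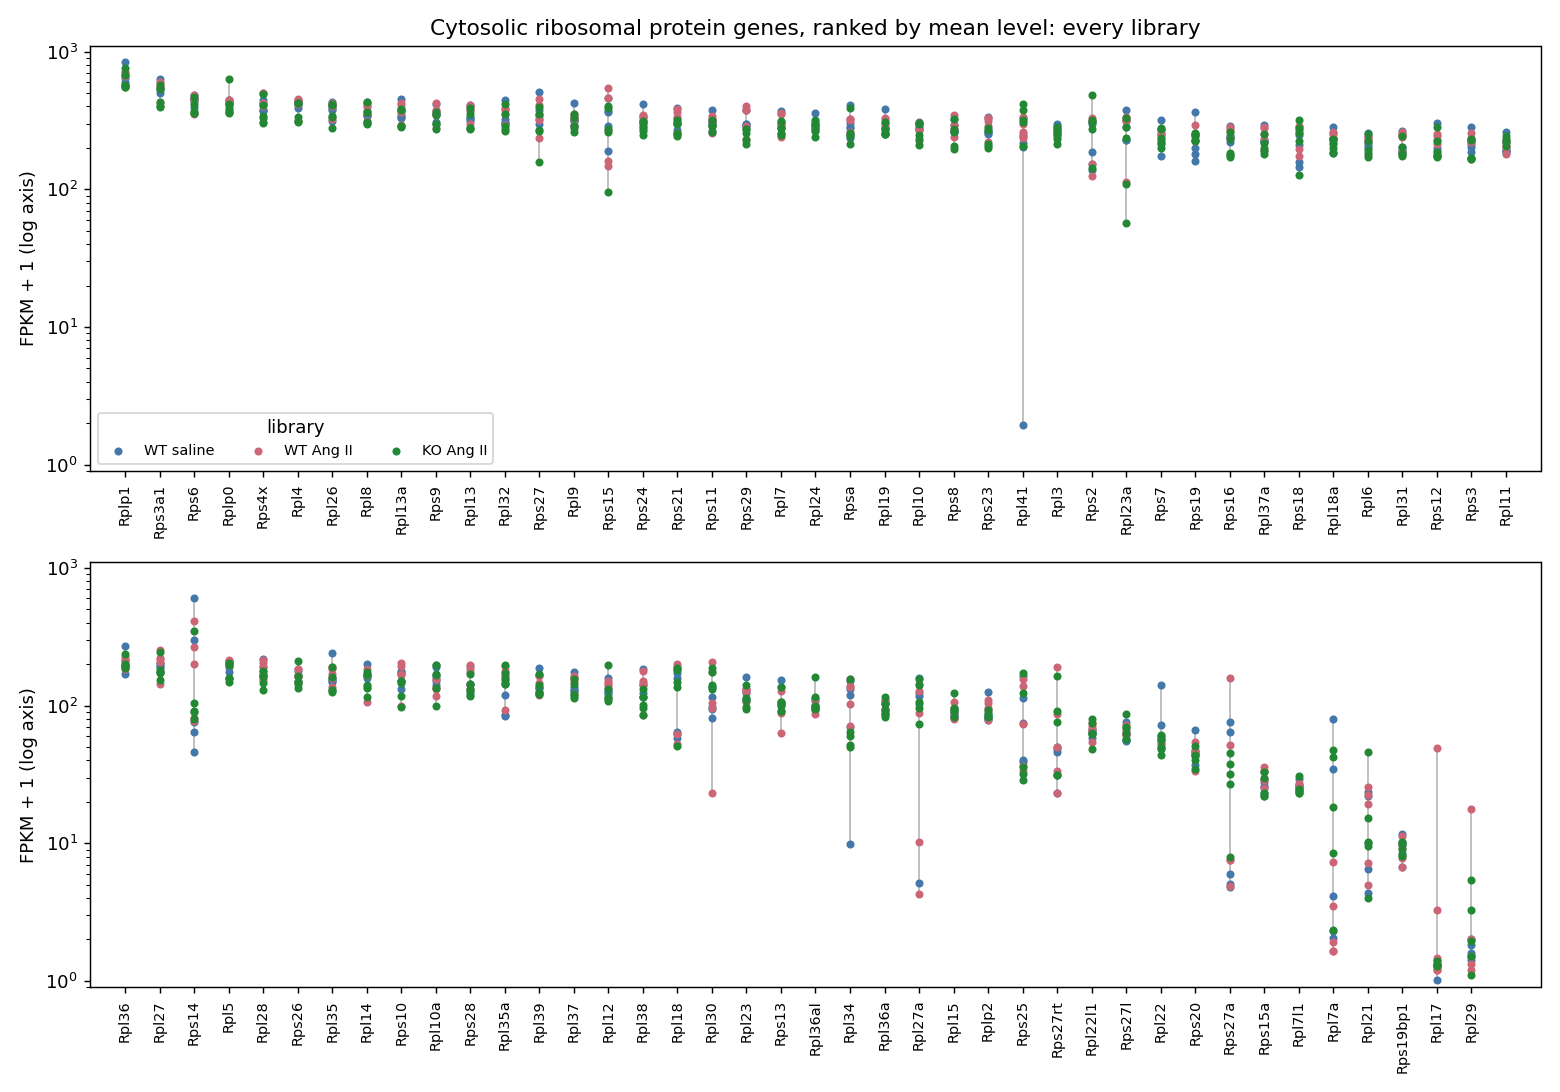
Level of the ribosomal protein genes, all but 2 of the 83, in 15 libraries, as FPKM + 1 on a log axis, ordered by mean level; each point is 1 library, coloured by group. Most genes form tight columns in which the 3 groups mix, while 14 genes, Rpl41 with the widest range, span more than 4 times.

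For 58 of the 83 genes the highest of the 15 libraries was less than 2 times the lowest, on FPKM + 1, while 35.2% of all tested genes (4409 of 12537) were that even. Another 14 genes spanned more than 4 times, against 23.3% of all tested genes. These bounds were chosen after the values had been seen and carry no test. Of the named functional groups, the stalk proteins Rplp0, Rplp1 and Rplp2, the proteins Rpl5 and Rpl11, which bind the small ribosomal RNA of the large subunit and can hold the p53 regulator MDM2, and the tunnel proteins Rpl4 and Rpl39 were among the even genes, while the tunnel protein Rpl17 and the mRNA entry protein Rps2 were not. So were 4 of the paralogues: Rpl7l1 at a mean of 24.8 FPKM, Rpl22l1 at 64.2, Rps27l at 63.8 and Rpl36al at 103.6. Rpl22l1 was as abundant as its sister Rpl22, at 60.2 FPKM, and Rps27l, known as a p53 target, stayed well under Rps27, at 336.

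The even genes varied together from library to library. Over the 15 libraries, the median Pearson's r between pairs of the 58 even genes was 0.70, against 0.38 for pairs of all 83, 0.42 for pairs of 78 mitochondrial ribosomal protein genes, 0.38 for pairs of 31 proteasome subunits and 0.02 for pairs of all tested genes. The 58 were picked for a small range in these same libraries and the other lists were not, so 0.70 is no like comparison with them. Without that choice the 83 members, at 0.38, lay level with the proteasome subunits and slightly below the mitochondrial ribosomal protein genes. These correlations share library and scaling and are given as a description. Rpl32 followed the median of the other even genes most closely (r = 0.98), then Rpl13a and Rps3 (both 0.96). Fau and Eef1a1, other genes of the translation machinery with a TOP tract, followed it at 0.86 and 0.87.

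This shared level differed more within groups than between them. The median of the 83 genes, each set against its own mean over the 15 libraries on the log2(FPKM + 1) scale, was 0.00, 0.31, -0.08, -0.03 and -0.03 in WT saline. In WT Ang II it was 0.15, 0.17, 0.15, -0.20 and 0.08. The KO Ang II libraries were at -0.23, -0.17, 0.05, 0.20 and -0.22. Animal WTNS_373 was the highest and animal KOAng_II402 the lowest. In WT Ang II only animal WTAngII580 lay below 0. In KO Ang II only animal KOAngII612 lay well above 0, with animal KOAngII560 slightly above it and the others below. Small and large subunit genes gave the same picture, with 0.33 and 0.31 in animal WTNS_373 and -0.27 and -0.23 in animal KOAng_II402. Group means were 0.034 ± 0.157 (SD, n = 5) in WT saline, -0.074 ± 0.191 in KO Ang II and 0.070 ± 0.155 in WT Ang II.

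The 4 lowest libraries were animals WTAngII580, KOAng_II402, KOAngII537 and KOAngII628. Ucp1, the uncoupling protein of brown adipocytes, was at 1352, 1139, 668 and 1235 FPKM in them, and mitochondrially encoded genes took 23.9%, 22.8%, 20.6% and 28.2% of the annotated sum. In the other 11 libraries Ucp1 was at 32.4 to 1765 FPKM and the mitochondrial share was 10.7% to 26.1%. Animal WTNS_373 had the highest Ucp1, 1765 FPKM, and a mitochondrial share of 26.1%, and had the highest ribosomal protein level as well, so the levels did not run opposite in every library. Animals WTNS_369 and WTNS_550 had Ucp1 at 913 and 942 FPKM, above animal KOAngII537, and a ribosomal protein level of 0.00 and -0.03. Mitochondrial ribosomal protein genes had a median of 0.27, 0.24, 0.19 and 0.18 in animals WTAngII580, KOAng_II402, KOAngII537 and KOAngII628 and of 0.39 in animal WTNS_373. The part of fat tissue in the shared level itself was not tested.

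**Figure D2:**
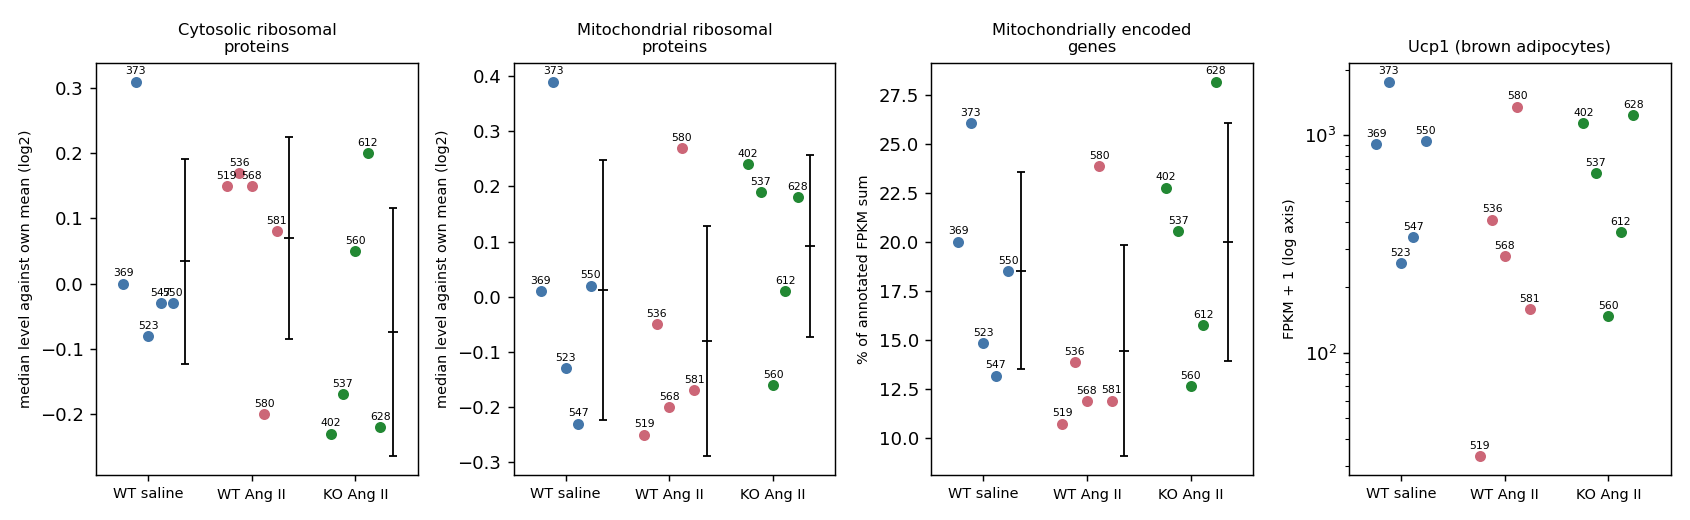
Median level of the cytosolic and the mitochondrial ribosomal protein genes (log2, against each gene's own mean), share of mitochondrially encoded genes (% of the annotated FPKM sum) and Ucp1 (FPKM + 1, log axis) in 15 libraries; points are labelled with the number in the library title, and black bars (not for Ucp1) are mean ± SD of 5. Animals WTAngII580, KOAng_II402, KOAngII537 and KOAngII628 are low for cytosolic and high for mitochondrial ribosomal proteins and mitochondrial share, while animal WTNS_373 is high in all 4.

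The first comparison asked whether Ang II changed these genes in WT aorta. None of the 83 passed the test, where the share over all tested genes was 0.0% (0 of 12537, limma, adjusted p under 0.05). At an unadjusted p under 0.05, 0 members were higher, beside 3.29% of all tested genes, and 0 were lower, beside 1.67%. The groups did not overlap for 0 members, beside 1.03% of all genes. The median difference of the 83 was 0.032 on the log2 scale, with 54 above 0 and 29 below, and that of all tested genes was 0.022. The smallest adjusted p of a member was 0.938. With the brown adipocyte, sympathetic neuron and skeletal muscle marker levels of the libraries as covariates the median was -0.081, with 18 above 0.

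Rpl35a, a large subunit protein whose human gene is mutated in Diamond-Blackfan anaemia, had the smallest p for a higher value. It was at 82.5, 118, 84.7, 143 and 159.5 FPKM in WT saline and at 177, 152, 91.1, 166 and 192 in WT Ang II. Animal WTAngII568 lay among the low saline animals, and the difference was 0.41 ± 0.22 (SE; limma adjusted p = 0.938). Rpl35a has 5 listed copies that exceed it, and gene and copies together, summed after the values had been seen, had means of 326 ± 54.2 FPKM (SD, n = 5) in WT saline and 346 ± 32.0 in WT Ang II. Rpl31, next to the tunnel exit, differed by 0.20 ± 0.14. Rpl22, Rps13 and Rpl10a had the smallest p for lower values, at -0.37 ± 0.22, -0.31 ± 0.19 and -0.28 ± 0.17. For Rpl22, animal WTNS_523 was at 140.3 FPKM and the other 4 saline animals at 51.1 to 71.5, and without it the difference was -0.13 ± 0.12. In that library 87.1% of the Rpl22 level was on transcripts that do not code for protein, against 7.68% to 14.5% in the other 14, and with protein-coding transcripts alone the difference was 0.17. The large values of Rpl41 (1.57 ± 1.06), Rpl17 (1.36 ± 0.77) and Rpl7a (-1.73 ± 1.05) belong to genes that jumped between single libraries.

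The second comparison set KO Ang II against WT Ang II, which asks what the knockout changes under Ang II. Again none of the 83 passed, with 0.0% of all tested genes passing. The median difference of the 83 was -0.150, with 17 above 0 and 66 below, beside -0.015 for all tested genes. At an unadjusted p under 0.05, 1 member was higher (Rpl7a), beside 2.94% of all genes, and 2 were lower (Rps29 and Rps23), beside 4.18%. The groups did not overlap for 0 members, beside 0.885% of all genes. The shift in the median was within the spread between libraries described above. It was -0.031 when only animals WTAngII580 and WTAngII581, the WT Ang II animals with intestinal markers, stood for WT Ang II, and -0.076 with the same marker levels as covariates.

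Rps29, a small subunit protein with a zinc finger (ENSMUSG00000034892.8, chr12:69157722-69159186, minus strand), had the smallest p. It was at 299, 376, 299, 289 and 293 FPKM in WT saline, at 226, 212, 273, 275 and 257 in KO Ang II, and at 376, 403, 372.8, 233 and 285 in WT Ang II. All 5 KO Ang II animals lay under all 5 WT saline animals, but animal WTAngII580 lay among the KO animals. The difference from WT Ang II was -0.40 ± 0.16 (limma adjusted p = 0.674). Rps23, at the decoding centre, was at 311, 329.9, 329, 221 and 289 FPKM in the WT Ang II animals and 206, 198, 276, 267 and 212 in the KO Ang II animals, with animal WTAngII580 again low, and differed by -0.35 ± 0.15 (adjusted p = 0.674). Rps21, of the small subunit, differed by -0.28 ± 0.14.

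Higher values were led by genes that jumped. Rpl7a, a large subunit protein, was at 1.06, 78.8, 3.17, 33.4 and 1.32 FPKM in the WT saline animals, 0.655, 0.915, 0.637, 2.52 and 6.34 in the WT Ang II animals and 17.5, 46.5, 7.53, 41.1 and 1.36 in the KO Ang II animals. Its difference of 2.49 ± 1.05 had an adjusted p of 0.674, and the WT saline group by itself ran from 1.06 to 78.8 FPKM. Much of this level was on transcripts that do not code for protein, at a mean of 70.9%. Their share was 3.52%, 100%, 24.8%, 54.9% and 94.3% in the KO Ang II animals. In the WT Ang II animals it was 100%, 100%, 100%, 98.8% and 13.6%. Rpl27a (1.57 ± 1.05) was at 9.23 and 3.31 FPKM in WT Ang II animals WTAng_II536 and WTAngII581 and at 72.5 to 154 in the other 8 animals of the 2 groups. Rpl30 (0.66 ± 0.44) was at 22.0 FPKM in animal WTAngII580, and Rpl11 differed by 0.12 ± 0.12.

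The third comparison, KO Ang II against WT saline, combines genotype and treatment. Over all tested genes 11 passed (0.0877%), and 0 members did. The median of the 83 was -0.106, with 22 above 0 and 61 below, beside 0.016 for all tested genes. At an unadjusted p under 0.05, 1 member was higher (Rpl35a), beside 3.49% of all genes, and 2 were lower, Rpl22 among them, beside 3.97%. The groups did not overlap for 1 member, Rps29, beside 1.54% of all genes. This comparison shares its KO libraries with the second and its saline libraries with the first.

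Rps29 differed by -0.33 ± 0.16 and Rps24 by -0.23 ± 0.12. Rpl35a was at 142, 146, 172, 198 and 156 FPKM in the KO animals and differed from WT saline by 0.51 ± 0.22 (adjusted p = 0.654). With its copies added the direction turned, at 307 ± 38.0 FPKM (SD, n = 5) in KO Ang II beside 326 ± 54.2 in WT saline. Rps27l differed by 0.17 ± 0.12, Rps27rt by 0.75 ± 0.56 and Rpl41 by 1.77 ± 1.06. The sum of Rps27rt and the matching Rps27 went the other way, at 365 ± 39.8 FPKM (SD, n = 5) in KO Ang II and 407 ± 84.8 in WT saline. Rpl22 differed by -0.46 ± 0.22, by -0.22 ± 0.12 without animal WTNS_523 and by 0.06 with protein-coding transcripts alone.

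**Figure D3:**
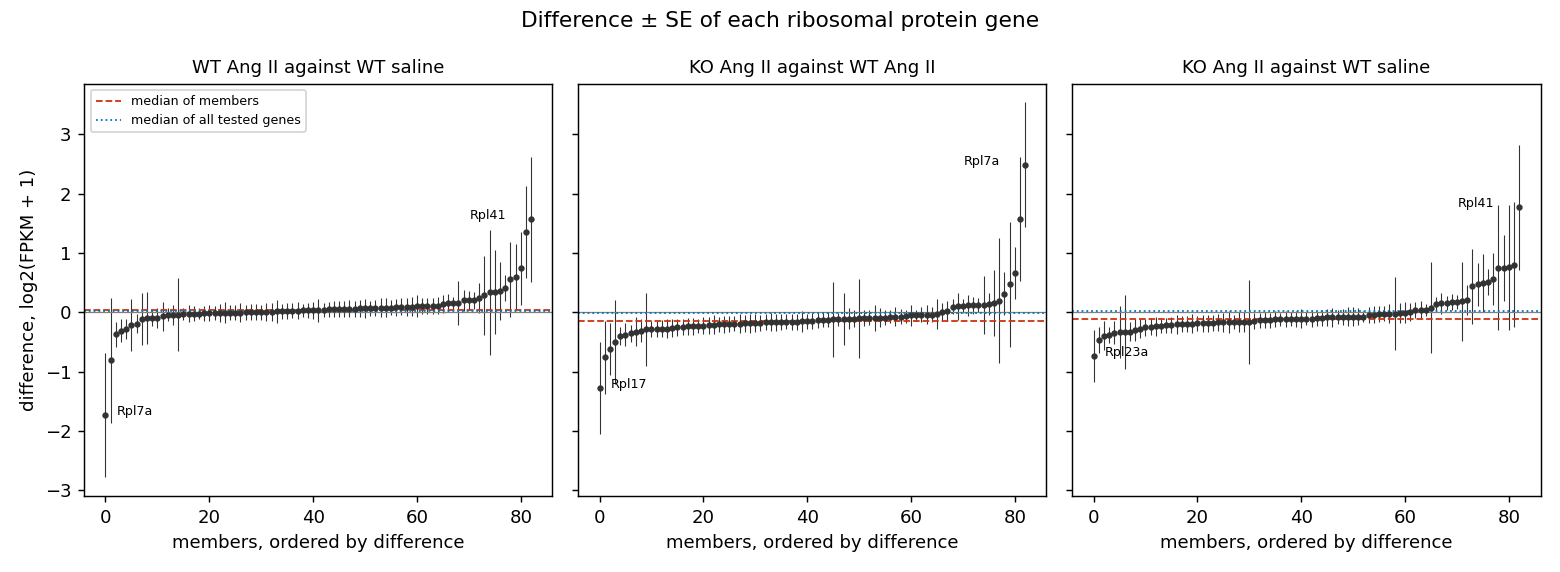
Difference of each of the 83 genes in the 3 comparisons, in log2(FPKM + 1) with SE bars, ordered by size; dashed red lines mark the median of the 83 and dotted blue lines that of all 12537 tested genes. The bulk of the genes forms a nearly flat line close to 0 in the first panel and slightly below 0 in the others, and only genes with wide SE bars reach beyond 1.

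Grouped by role, no gene passed the test. Stalk proteins differed by 0.00, 0.06 and 0.11 (Rplp0, Rplp1 and Rplp2) between WT Ang II and WT saline and by 0.00, -0.10 and -0.15 between KO and WT Ang II. Rpl5 and Rpl11 went apart between KO and WT Ang II, at -0.19 ± 0.13 and 0.12 ± 0.12. At the mRNA entry, Rps3 and Rps9 differed by -0.21 ± 0.16 and -0.18 ± 0.13, and Rps2, which has 3 listed copies, by 0.31 ± 0.37. In the exit tunnel Rpl4 and Rpl39 differed by -0.20 ± 0.14 and -0.16 ± 0.14, and Rpl17 by -1.28 ± 0.77. A list of 9 genes mutated in Diamond-Blackfan anaemia had medians of 0.030, -0.092 and -0.027 in the 3 comparisons. It was a chosen list and need not hold every such gene among the members. Small subunit genes had medians of 0.013, -0.185 and -0.169 and large subunit genes of 0.033, -0.139 and -0.100; the difference between the subunits was not tested.

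Other parts of the translation machinery are given for comparison, from lists of which no gene passed in any of the 3 comparisons. Between KO and WT Ang II, 19 other TOP genes had a median of -0.157 with 15 below 0, close to the ribosomal proteins, among them Eef1b2 (-0.24 ± 0.13) and Eif3f (-0.19 ± 0.11). Translation elongation factor Eef1a1 differed by -0.20 ± 0.14 and Tpt1 by -0.20 ± 0.13. Initiation factors (34 genes) had a median of 0.028, with Eif3i at -0.47 ± 0.15 and the scaffold Eif4g1 at 0.71 ± 0.30. Ribosome biogenesis genes (35) had a median of 0.025, with Dkc1, the pseudouridine synthase, at -1.08 ± 0.43. Elongation and termination factors (12) had a median of -0.070 and ribosome quality control genes (9) of 0.124. In the mTORC1 list (18 genes, median -0.033) Tsc1, an inhibitor of the pathway, was at -1.17 ± 0.39 and the translation repressor Eif4ebp1 at 0.39 ± 0.20.

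The 78 mitochondrial ribosomal protein genes had a median of 0.176 between KO and WT Ang II, with 68 above 0, and of -0.095 between WT Ang II and WT saline, with 59 below. Nuclear genes of oxidative phosphorylation (38) had medians of 0.366 and -0.267 in these comparisons, and the 31 proteasome subunits of 0.095 and -0.046. In both comparisons, which share the WT Ang II libraries, the median of the 83 cytosolic genes lay on the other side of 0 from that of their mitochondrial counterparts. Between WT Ang II and WT saline, though, the cytosolic median of 0.032 was close to the 0.022 of all tested genes. Over the alternative fits it ran from -0.081 to 0.131.

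The 14 genes with wide swings were Rpl7a, Rpl17, Rpl21, Rpl23a, Rpl27a, Rpl29, Rpl30, Rpl34, Rpl41, Rps14, Rps15, Rps25, Rps27a and Rps27rt. Their median pairwise r was 0.09. Rpl41, the smallest ribosomal protein, was at 201, 241, 218, 0.947 and 328 FPKM in the WT saline animals and between 205.9 and 415 in the other 10 libraries, so that animal WTNS_547 alone was near 0. In animal WTNS_369 Rpl41 was at a usual level, but 199 FPKM of it were on a retained-intron transcript and the main coding transcript was listed at 0. Rps14 was at 75.5, 604, 298, 45.3 and 63.1 FPKM in the WT saline animals and ran from 75.8 to 409 in WT Ang II and from 79.2 to 348 in KO Ang II. Its swings were mostly on 1 coding transcript, at 544.7 FPKM in animal WTNS_373 and 0.0797 in animal KOAngII612, while its retained-intron transcript stayed at 14.8 to 57.1. In animal WTAng_II536, with 199 FPKM of Rps14, that coding transcript was at 9.39 and other coding transcripts were at 71.0 and 61.9. Rps25 and Rps15 likewise had high and low libraries in every group.

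For some members, copies of the same sequence were high where the gene was low. In all, 96 pseudogenes named after 45 of the members were listed; together they had 1753 to 2986 FPKM per library, which was 9.83% to 13.7% of the members and copies combined. For 6 members, Rpl7a, Rpl17, Rpl21, Rpl34, Rpl35a and Rps27a, the copies had a higher mean than the gene. Rpl34 was at 8.94, 151, 119, 130.2 and 68.7 FPKM in WT saline and its copy Rpl34-ps1 at 291, 116, 96.2, 95.8 and 201. In KO Ang II the gene was at 58.7, 49.0, 63.1, 154 and 50.8 and the copy at 198, 186, 241, 112 and 193. The copy was highest in animal WTNS_369, where the gene was lowest, and their sum stayed between 203 and 316 FPKM in the 15 libraries, a span of 1.56 times, against 15.7 times for the gene alone (on FPKM + 1).

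Rps27a, which codes for a ribosomal protein fused to ubiquitin, showed the same with Rps27a-ps2: in WT saline the gene was at 4.08, 3.82, 63.5, 4.94 and 74.9 FPKM and the copy at 113, 149, 34.2, 106 and 43.8. Their sum spanned 2.28 times, against 32.9 times for the gene alone (on FPKM + 1). Rps27 and Rps27rt, which are the same over the 341 bases shown in part above, were at 156 to 508 FPKM and 22.3 to 189 FPKM. Rps27rt was highest in WT Ang II animal WTAngII581 (189 FPKM) and KO Ang II animal KOAngII537 (164), the 2 libraries with the least Rps27 (234 and 156), and the sum of both spanned 1.73 times. Rpl17 was at 48.0 FPKM in animal WTAng_II519, at 2.29 in animal WTAngII581 and at 0.0197 to 0.459 in the others, while its 5 copies added up to 231 to 361 FPKM throughout. The sum of Rps2 and its 3 copies spanned 1.75 times. For Rpl7a the picture was mixed, with its 4 copies at 116 to 172 FPKM. They were lowest in animal KOAngII537 (116 FPKM), where the gene was high at 46.5 FPKM. They were highest in animal KOAngII612 (172 FPKM), where the gene was high as well, at 41.1 FPKM. In animal KOAngII628 both were low, at 118 and 1.36 FPKM. The sum of Rpl7a and its copies spanned 1.83 times, against 48.8 times for the gene alone (on FPKM + 1). The copies do not cover every swing: Rpl27a, Rpl41, Rps14 and Rps15 have no listed copy by name. With the copies added Rpl29 spanned 26.5 times, Rps25 6.5 times, Rpl23a 4.23 times and Rpl30 3.04 times. Spans of sums are on FPKM, without the added 1. Rpl29 alone ran from 0.0978 to 16.6 FPKM and with its copy from 0.653 to 17.3. For Rps25 the sum, at 28.2 to 183 FPKM, was no narrower than the gene alone, at 27.9 to 172. Levels of Rpl34, Rps27a, Rps27, Rps27rt and the other genes whose copies exceed them are therefore uncertain one by one, while some listed copies were negligible, such as that of Rps24 at 0.844% of the sum.

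**Figure D4:**
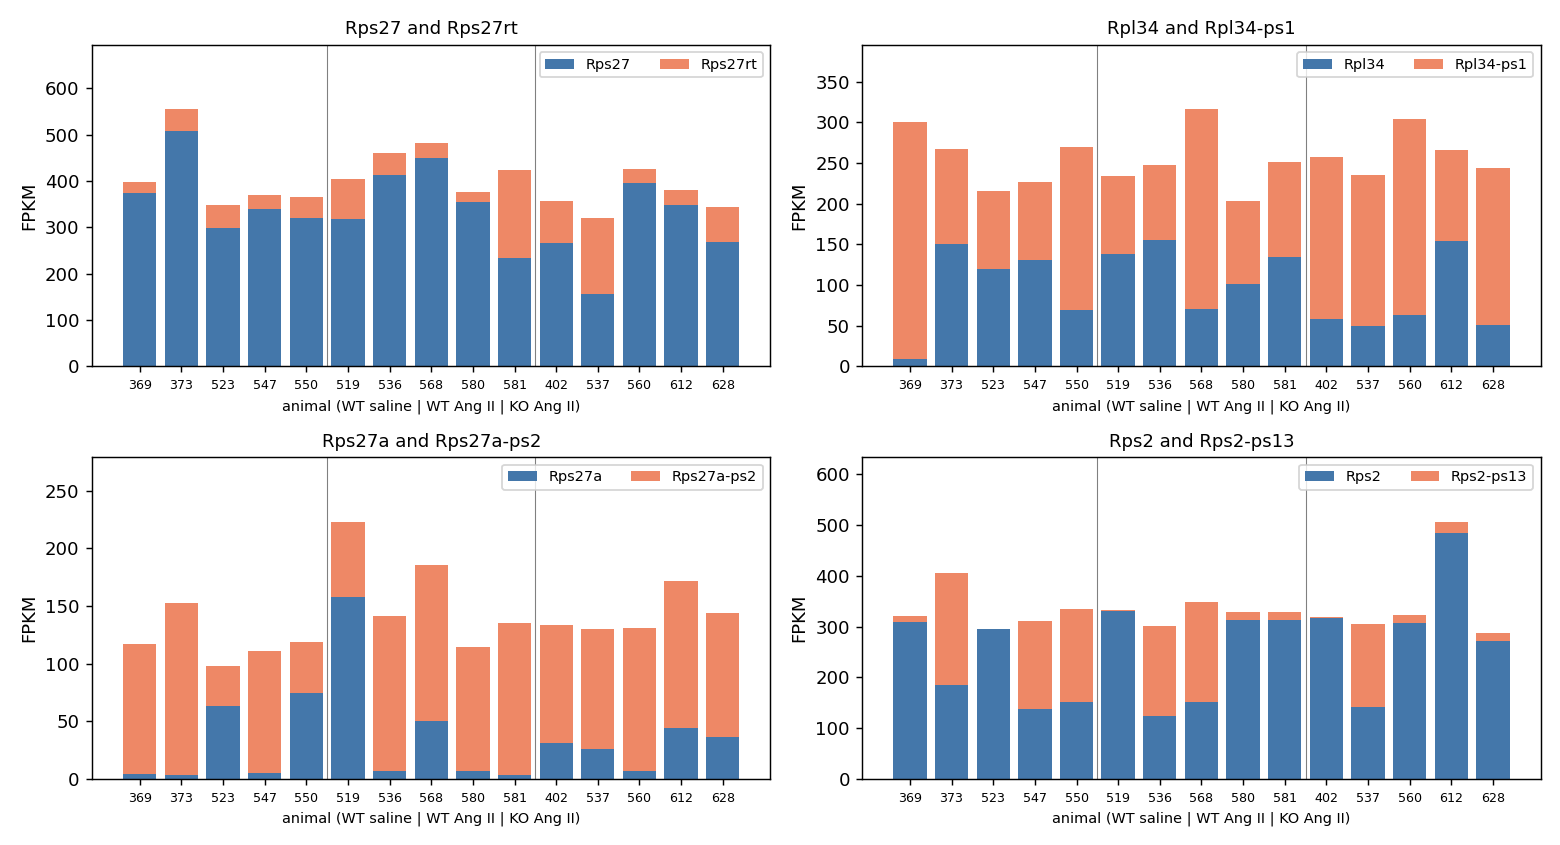
FPKM of 4 ribosomal protein genes (blue) stacked with a copy (orange) in 15 libraries; vertical lines part the 3 groups. The 2 parts of a bar change from animal to animal while its height changes less: Rpl34 and Rpl34-ps1 together stay between 203 and 316 FPKM.

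Transcripts annotated as not coding for protein took 6.66% to 10.2% of the members' FPKM per library, mostly those that retain an intron (4.30% to 7.22%). Their share did not set the groups apart, at 8.93% ± 0.921 (SD, n = 5) in WT saline, 8.46% ± 0.644 in KO Ang II and 8.54% ± 1.39 in WT Ang II. Among the genes named here the share was largest for Rps27a, at a mean of 79.8%, and Rpl7a, at 70.9%. Between libraries these ran from 8.84% and 3.52% up to 100%. Rpl21, Rps14, Rps26 and Rpl27a had means of 33.1% to 36.7%. The share was large but steadier for Rpl13a, a protein known for its role in interferon responses. Its mean was 39.4%, and it lay between 33.2% and 48.6% in each library. The share was also large for Rpl3, at the peptidyl transferase centre, at a mean of 56.7%. There animal WTAngII580 was at 14.3% and the other 14 at 51.5% to 72.3%.

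The KO saline libraries could be compared only by transcript. Their table lists 2025 transcripts, how these were chosen is not given in the sources used here, and 974 annotated transcripts were in all 4 tables. Of these 11 belong to 9 members, and 10 of them were among the 619 transcripts with a mean of at least 1 FPKM. Between KO saline and WT saline, 0 of the 10 passed as higher, beside 0.646% of the 619, and 0 as lower, beside 0.485%. Between KO Ang II and KO saline, 2 of the 10 passed as higher, beside 8.89% of the 619, and 1 as lower, beside 11.0%. The 3 that passed were 2 transcripts of Rps26 and 1 of Rpl34.

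Rps26, a small subunit protein near the mRNA exit whose human gene is mutated in Diamond-Blackfan anaemia (ENSMUSG00000025362.6, chr10:128624534-128626747, minus strand), had its coding and its retained-intron transcript among them. The coding transcript, ENSMUST00000026420, was at 0.267, 87.8, 0, 98.8 and 0.02001 FPKM in KO saline and at 119, 88.0, 154, 176 and 113 in KO Ang II. In 3 of the KO saline animals it was at or near 0, and the lowest KO Ang II animal lay just above one and below the other of the remaining 2. The retained-intron transcript, ENSMUST00000219591, was at 166, 105, 173, 60.4 and 180.4 FPKM in KO saline and at 13.8, 58.3, 7.49, 32.1 and 29.1 in KO Ang II, so all KO saline animals lay above all KO Ang II animals. The differences were 4.30 ± 1.31 (limma adjusted p = 0.0334) and -2.43 ± 0.68 (adjusted p = 0.0233).

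The 2 transcripts traded places while their sum changed less. Together they had 159 to 193 FPKM in KO saline, 132.8 to 208.5 in KO Ang II, 146 to 183 in WT Ang II and 147 to 178 in WT saline, with means of 174 ± 12.99 (SD, n = 5), 158 ± 29.9, 167 ± 15.7 and 159 ± 11.9. The exchange was not limited to KO saline: WT Ang II animals WTAng_II536 and WTAngII581 had 0 and 30.2 FPKM of the coding and 183 and 151 of the retained-intron transcript. A test of whether the Ang II effect differs between KO and WT, added after these values were seen, gave 5.85 ± 1.85 for the coding transcript (limma adjusted p = 0.0684) and -2.83 ± 0.957 for the other (adjusted p = 0.0747), and 0 of the 10 passed it, beside 2.1% of the 619. The call on the coding transcript was lost, at adjusted p of 0.0509 to 0.0692, when any one of KO saline animals KONS_387, KONS_555 and KONS_627 or KO Ang II animals KOAng_II402 and KOAngII612 was left out.

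**Figure D5:**
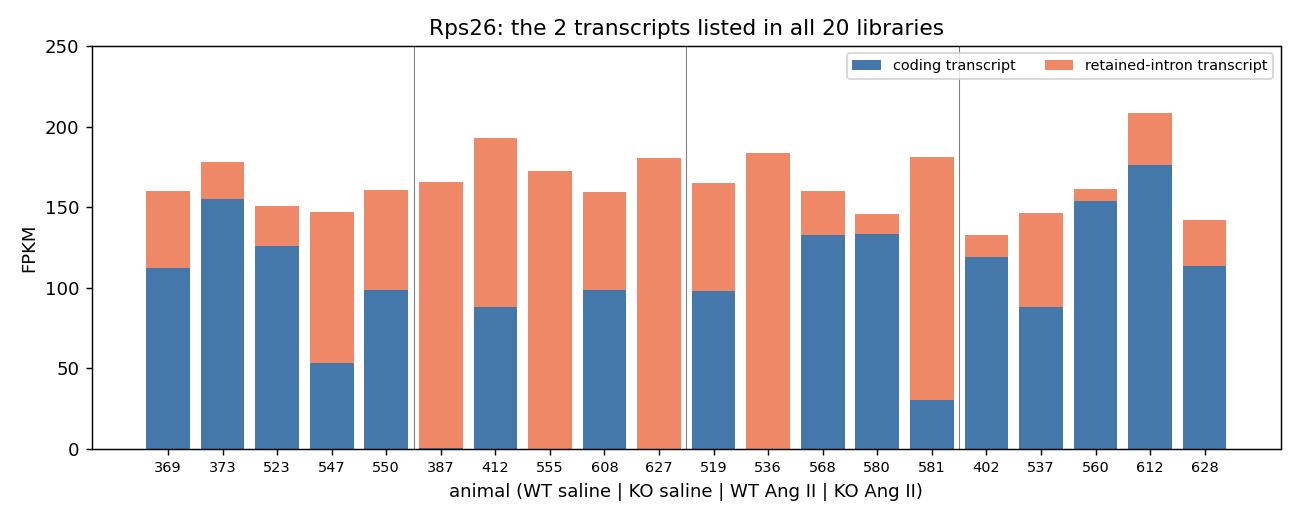
FPKM of the coding (blue) and the retained-intron transcript (orange) of Rps26, stacked, in all 20 libraries; vertical lines part the 4 groups. The height stays between 132.8 and 208.5 FPKM, while the coding part is at or near 0 in KO saline animals KONS_387, KONS_555 and KONS_627 and WT Ang II animal WTAng_II536.

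The third transcript, ENSMUST00000196202, is a minor coding transcript of Rpl34. It was at 0, 0, 0, 24.2 and 0 FPKM in the KO saline animals and at 44.5, 11.3, 32.3, 42.1 and 12.5 in the KO Ang II animals, with KO saline animal KONS_608 inside the range of the KO Ang II group. The difference was 3.74 ± 0.860 (limma adjusted p = 0.00862). With 4 of the 5 KO saline values at 0 its size depends on the pseudocount: it was 6.35 with a pseudocount of 0.1, and 4.67 without animal KONS_608. Among WT animals it ran from 0 to 24.7 FPKM in saline and from 11.9 to 36.9 in Ang II. This transcript belongs to the gene whose level mirrored that of Rpl34-ps1 above.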

How the data were processed

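The authors deposited FPKM per transcript for each library; the unit was read from the values. Per the submitters' processing notes, bcl2fastq, FastQC and fastp were used with mm10; the aligner and the program that made the FPKM were not given in the labels used here. Transcripts were matched to GENCODE M21 (GRCm38) and summed per gene over those listed in both the WT and the KO Ang II tables. Differences were tested with limma 3.58.1 (R 4.3.3; trend and robust) on log2(FPKM + 1), which understates changes of low genes, in 1 model of 15 libraries over 12537 genes with a mean of at least 1 FPKM, with Benjamini-Hochberg adjustment over all of them and a threshold of 0.05. KO saline transcripts were tested over 20 libraries and 619 transcripts. The fit was tested on simulated data. The members, gene lists and tests were chosen with earlier results of these data known. Named were the members with the 4 smallest p in each direction per comparison, the 5 highest and 5 lowest, those of the role lists, and 2 genes of each other list per comparison. Alternatives covered the pseudocount, filters, scaling, weights, covariates and leaving out libraries. Results on some genes are not reported here.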

Additional observations from a re-analysis of the deposited data

Results flagged for a closer look

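In 10 of 54 groups of 5 libraries, over the 18 genes with the smallest p in the 3 comparisons, 1 library lay far from the other 4 (gap over range above Dixon's 0.71 on log2(FPKM + 1)); chance gives about 1 in 20 for independent groups, but these genes were selected and vary together, so that rate does not apply here. In WT saline animal WTNS_373, the library with the highest shared level, 5 genes stood out as high: Rpl11 at 260.6 FPKM, Rpl31 at 266.0, Rps23 at 333.1, Rps24 at 417.1 and Rps29 at 376.4. WT Ang II animal WTAngII580 stood out as low for Rpl31 at 188.4 FPKM and Rps24 at 281.1. Rpl27a was at 4.107 FPKM in WT saline animal WTNS_550 (next 101.1) and Rpl41 at 0.9474 in animal WTNS_547 (next 201.1). Rpl17 was at 48.01 FPKM in WT Ang II animal WTAng_II519 (next 2.29).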

How the results depend on the processing

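The count of members passing stayed at 0 in all 65 alternative fits of the 3 comparisons. Their median difference ran from -0.081 to 0.131 for WT Ang II against WT saline, from -0.257 to -0.031 for KO against WT Ang II and from -0.17 to -0.043 for KO Ang II against WT saline, each within 1 SD between libraries of its reported value. That SD, 0.155 to 0.191, is larger than each reported median, so this bound allows a change of sign. The sign did change for WT Ang II against WT saline. Differences of single genes were followed for the members with the 4 smallest p in each direction per comparison. Among them Rpl22 reversed with protein-coding transcripts alone, to 0.17 (WT Ang II against WT saline) and 0.06 (KO Ang II against WT saline). The other 516 alternative values of these members kept their direction and side of the threshold. The other genes named here are not part of that count. For KO saline against WT saline, the count of member transcripts ran from 0 to 1 when libraries were left out, and was 1 without WT saline animal WTNS_523 or KO saline animal KONS_608; for KO Ang II against KO saline it ran from 2 to 4. Rpl34 and the retained-intron Rps26 transcript kept their calls in 13 alternatives. No paired analysis was possible because the numbers in the titles differ between groups.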

Other observations

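Rpl3l, the striated muscle paralogue of Rpl3, was listed for WT animals alone. It was at 1.38, 0.0926, 1.37, 0 and 0.737 FPKM in the saline group and at 0, 0, 0, 1.39 and 0.0944 in the Ang II group. The skeletal muscle marker mean, on log2(FPKM + 1), was 4.35, 0.38, 4.35, 0.44 and 3.03 and then 0.58, 0.55, 2.22, 3.79 and 0.61 in the same order. Rpl3l was highest in animals WTNS_369, WTNS_523, WTNS_550 and WTAngII580, which also had the 4 highest marker means.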
